A study of Mus musculus with 5 samples.

Results

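The TAM receptors Tyro3, Axl and Mertk and their ligands Gas6 and Pros1 were followed across 5 arrays of B16F1 mouse melanoma cells. The members were the probes whose RefSeq accession, version removed, belongs to 1 of these 5 genes, of 22907 genes named on the arrays. The rule found 8 probes: 2 each for Axl, Tyro3 and Pros1, and 1 each for Mertk and Gas6. The family was chosen by the measured values of Axl, which was high with CCG1423 and low in both knockout clones. Its values are therefore given as descriptions, with no test for any of the 5 genes.

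The series concerns Tmsb4x, the gene of thymosin β4, which holds actin in its monomeric form, in cells given TGF-β1. Wild-type B16F1 cells received vehicle, TGF-β1 at 10 ng/ml for 2 days, or TGF-β1 at 10 ng/ml with the MRTF inhibitor CCG1423 at 10 µM for 2 days, with 1 array each. Tmsb4x knockout clone 1 and clone 2 of the same line received TGF-β1 at 10 ng/ml for 2 days, with 1 array each. No knockout array had vehicle or CCG1423. Each knockout culture was a single clone, the labels do not describe the editing, and all cultures were kept in medium with foetal bovine serum. The treatment field of the CCG1423 array names that inhibitor alone, and its title and description name both agents. With 1 array per wild-type condition, differences among those arrays have no replicate check. RNA was taken from whole cultures, so more RNA per cell and more cells expressing a gene cannot be told apart.

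TAM receptors are cell surface tyrosine kinases with immunoglobulin-like and fibronectin-like domains outside the cell. Their ligands, Gas6 and protein S (Pros1), carry vitamin K-dependent glutamate modifications through which they bind phosphatidylserine on dying cells, and so link those cells to the receptor. In macrophages this leads to engulfment of dying cells and to damping of inflammatory signals. In melanoma, high AXL is known from human tumours as a feature of cells with low MITF, the master regulator of the melanocyte lineage, and AXL is known as a target of the YAP and TEAD factors.

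Values are log2 of the scanner's processed signal minus the 75th percentile of the same array, so 0 is the level of a fairly bright probe. Levels of different probes are not compared, since probes differ in brightness per transcript. The software's flag for a signal well above background decided whether a probe was detected. Between 48.2% and 53.8% of probes were detected on each array, and 0 spots were saturated. Tmsb4x, the targeted gene, stood at 5.05 with vehicle, 7.12 with TGF-β1, 6.79 with CCG1423 added, 5.44 in clone 1 and 4.28 in clone 2. Tmsb4x was thus detected in both clones, at less than in wild-type cells given TGF-β1. Compared with the 5.05 of wild-type cells given vehicle, clone 1 had more signal and clone 2 had less. The labels do not describe the editing, so whether this probe reports the loss of Tmsb4x was not tested. All 10 melanocyte markers checked, such as Mitf, Pmel and Tyrp1, were detected on all 5 arrays.

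Axl, the receptor the family was chosen for, had its highest level with CCG1423 on both probes, and its lowest in the knockout clones on the brighter probe only. That probe stood at 2.30 with vehicle, 2.93 with TGF-β1, 5.0 with CCG1423 added, 1.72 in clone 1 and 1.63 in clone 2. The CCG1423 array lay 4.20-fold above TGF-β1 alone and 6.48-fold above vehicle. TGF-β1 alone lay 1.54-fold above vehicle, and clone 1 and clone 2 were 2.30-fold and 2.46-fold lower than wild-type cells given TGF-β1. On that probe both clones were also below vehicle, 1.49-fold and 1.60-fold. The order of levels on the brighter probe was therefore CCG1423 with TGF-β1, TGF-β1, vehicle, clone 1 and clone 2. The clones differed 1.07-fold, less than the software's own error of 10.0% of the signal on each array.

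**Figure D1:**
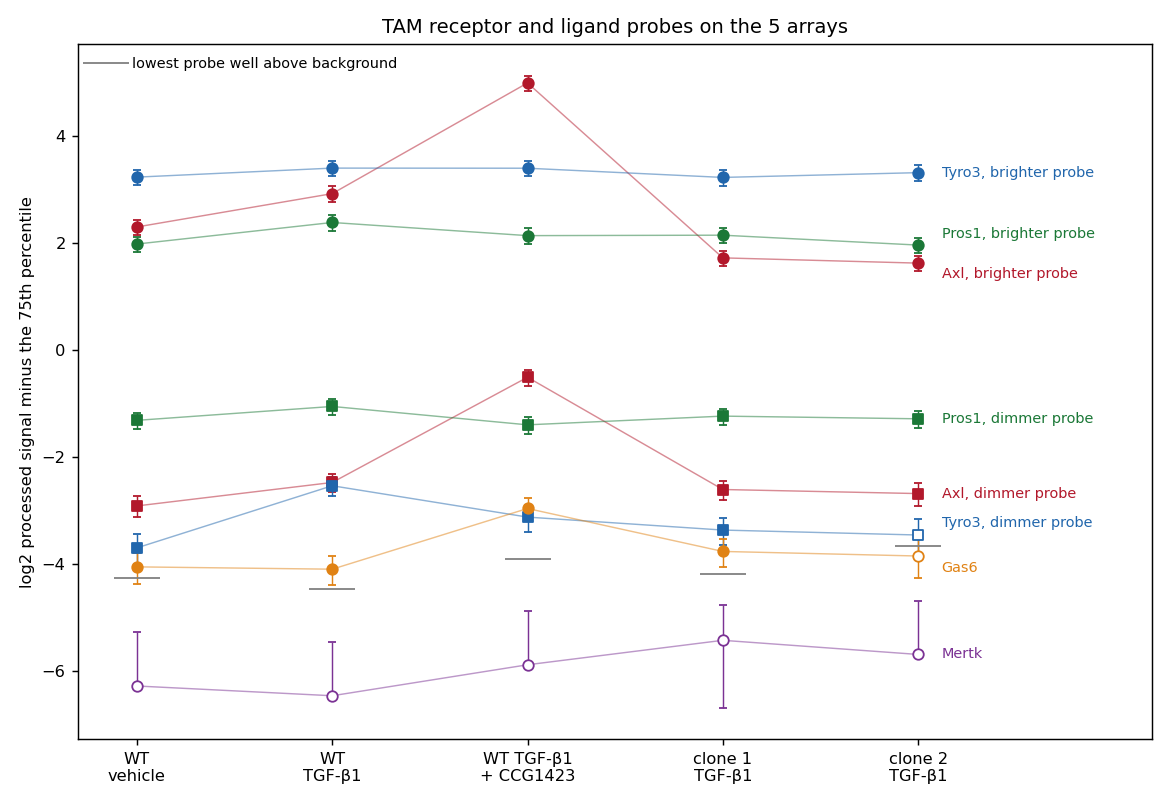
Log2 processed signal minus the array's 75th percentile (vertical axis) of the 8 probes on the 5 arrays; circles are the brighter or only probe of a gene, squares the dimmer one, open symbols are not well above background, bars are the scanner software's error (lower bar left out where the error reaches the signal) and grey dashes mark the lowest probe well above background on each array. Axl is highest with CCG1423 on both probes (5.0 and -0.51), while Mertk is open on all 5 arrays.

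The promoter of Axl is shown because the series acts on MRTF and SRF, which bind the CArG box, and because Axl is a known TEAD target. Both stretches are RefSeq sequence of the reference build GRCm38.p6, minus strand, written 5′ to 3′, and lie within the 250 bases before the tabled start of the gene. The first, chr7:25788925-25788983, lies before every annotated start of Axl, and its capitals mark the TEAD core GGAATG. The second, chr7:25788734-25788763, ends at the tabled start, and its capitals mark the Sp1 core GGGCGG.
Axl before every annotated start: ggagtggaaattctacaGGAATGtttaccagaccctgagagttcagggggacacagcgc
Axl before the tabled start: cccaaggctggggccctagtGGGCGGaggc
Searched on both strands over the whole 250 bases, Axl held GGAATG 1 time, starting 233 bases before the tabled start, and GGGCGG 1 time, with no overlap between them. It held no CArG box, no AP-1 core TGANTCA and no CATGTG, the only MITF core searched. Of all 32851 promoter windows of that length, 12.6% held GGAATG, 32.7% GGGCGG, 1.47% a CArG box, 6.75% TGANTCA and 12.3% CATGTG. All 5 family members held GGGCGG, 1 of 5 held GGAATG, and 0 held the other 3 motifs. A match is a run of letters and not a measured site.

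The dimmer Axl probe carries the same RefSeq accession as the brighter one. It stood at -2.92 with vehicle, -2.48 with TGF-β1, -0.51 with CCG1423 added, -2.61 in clone 1 and -2.69 in clone 2, and was well above background on all 5 arrays. With CCG1423 it was 3.91-fold above TGF-β1 alone, close to the 4.20-fold of the brighter probe. Its lowest level was with vehicle, and the clones lay 1.24-fold and 1.17-fold above vehicle, so the order of clones and vehicle turned between the probes. Against wild type under TGF-β1 the probes disagreed as well: the dimmer one lay at -0.13 and -0.21 in the clones, where the brighter one lay at -1.20 and -1.30. The software's error for the dimmer probe ran from 10.2% to 14.8% of its signal, so its clone differences were within that error for clone 1 and close to it for clone 2. The lower level of Axl in the knockout thus rests on 1 of its 2 probes.

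Probes of like signal give a scale for these differences. Axl was chosen for its CCG1423 and clone differences, so its place against them is a description. Among 2514 probes detected on all arrays within 0.5 log2 of the brighter Axl probe, the 5th to 95th percentile of the CCG1423 difference was -0.98 to 0.73. Axl at 2.07 lay above that range. For the clones the ranges were -0.56 to 0.69 and -0.52 to 0.53, and the brighter Axl probe lay below both. For TGF-β1 against vehicle the range was -0.43 to 0.64, with Axl at 0.62 inside it. The dimmer probe, set against 3522 probes of its own signal, lay above the range with CCG1423 (-1.05 to 1.21) and inside it in both clones (-0.81 to 0.90 and -0.79 to 0.82).

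**Figure D2:**
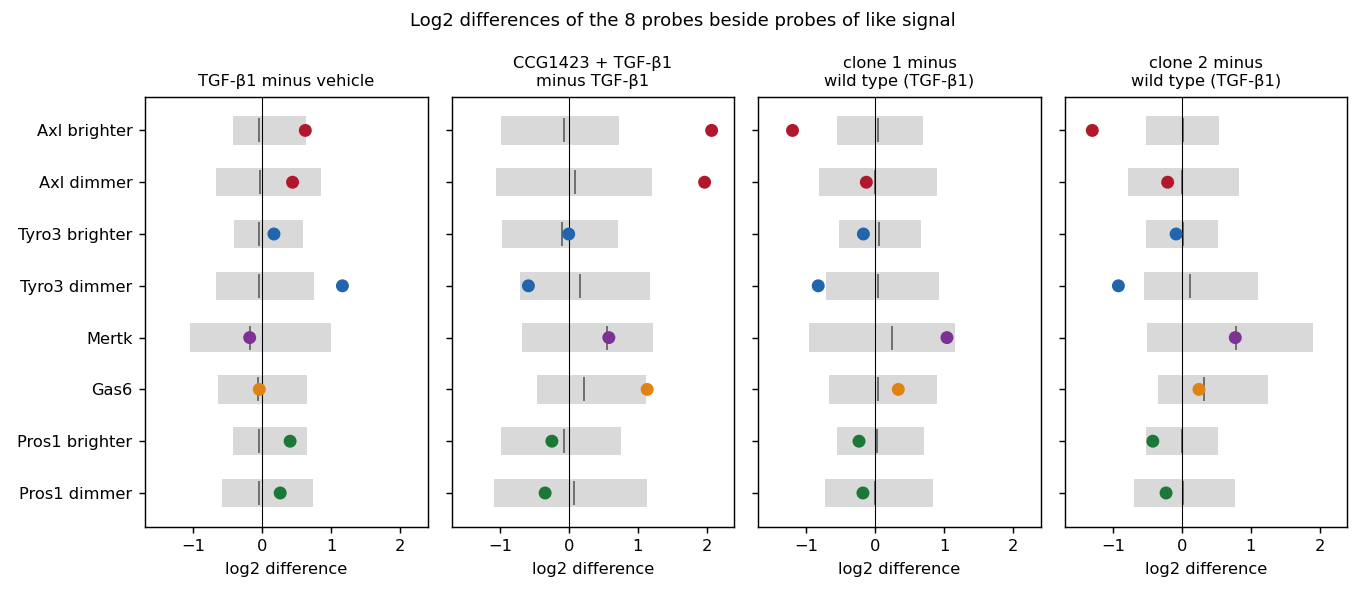
Log2 differences (horizontal axis) of the 8 probes in 4 comparisons of single arrays. Grey bars run from the 5th to the 95th percentile of probes of like signal and grey ticks mark their median. Those probes were detected on all arrays, or for Mertk on none. Both Axl probes lie to the right of the bar with CCG1423 (2.07 and 1.97), and only the brighter one lies to the left of it in the clones (-1.20 and -1.30).

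Counts over all genes set the family's calls in context. With CCG1423, 6.01% of 14057 genes were at least 2-fold higher and 6.98% at least 2-fold lower, and 2 of the 4 family genes that could be compared, Axl and Gas6, were higher. Against wild type, 1.58% of 13729 genes were at least 2-fold lower in both clones and 0.699% higher, and Axl was 1 such gene of the 4. With TGF-β1 against vehicle, 4.95% of 14145 genes were at least 2-fold higher and 3.27% lower, 8.21% in either direction, and 0 of the 4 family genes were. In both clones 2.28% differed in either direction. The clones differed from each other at least 2-fold in 7.57% of 13849 genes (3.34% higher and 4.24% lower in clone 1) and in 0 of the 4. Over all genes limma called 0.233% between clones and wild type (0.00728% higher and 0.226% lower), against 793 genes at an unadjusted p under 0.05. In the authors' scaling of the same intensities, the numbers of higher and lower genes moved from 845 and 981 to 658 and 1304 with CCG1423, from 96 and 217 to 52 and 273 in the clones, and from 462 and 587 to 281 and 1085 between the clones; that scaling shifted the median of all genes by -0.13 with CCG1423, 0.10 with TGF-β1 and -0.20 in the clones. Since the CCG1423 and knockout contrasts chose the family and share the wild-type TGF-β1 array, nothing is read from these counts.

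Tyro3, the TAM receptor first known from the nervous system, hardly varied on its brighter probe. That probe stood at 3.24 with vehicle, 3.40 with TGF-β1, 3.40 with CCG1423 added, 3.23 in clone 1 and 3.32 in clone 2. The 5 arrays lay within 0.17 of each other on the log2 scale, and no difference left the range of probes of like signal. The dimmer Tyro3 probe, which carries another RefSeq transcript accession, gave another picture. It stood at -3.70, -2.54, -3.13, -3.37 and -3.46 in the same order and was not well above background in clone 2. The wild-type TGF-β1 array was the highest, 2.24-fold above vehicle and 1.78-fold above clone 1, with an error of 11.99% to 23.8% of the signal. Against probes of like signal the dimmer probe lay above the 95th percentile with TGF-β1 (1.16 against 0.75). Its differences were -0.83 in clone 1 and -0.92 in clone 2, against 5th percentiles of -0.72 and -0.56. Those 1647 probes were detected on all 5 arrays, which this probe was not. Since that filter leaves out low values, nothing is read from these percentiles in the clones. With TGF-β1 against vehicle the brighter probe differed by 0.17, so the 2 probes disagree on whether Tyro3 was higher with TGF-β1.

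Mertk, the TAM receptor of macrophages and retinal pigment epithelium, stayed at background on all 5 arrays. Its single probe stood at -6.29 with vehicle, -6.47 with TGF-β1, -5.89 with CCG1423 added, -5.43 in clone 1 and -5.70 in clone 2. The level of unlit probes also differed between arrays: the 22162 probes not detected on any array had median differences of 0.55 with CCG1423, 0.24 in clone 1 and 0.78 in clone 2, against 0.58, 1.04 and 0.77 for Mertk. Mertk was thus near that median with CCG1423 and in clone 2 and above it in clone 1, without being detected there. No fold is given. Of 13 macrophage and other immune markers, 7 were also undetected on every array, among them Ptprc, Adgre1 and Fcgr1, and 5 to 6 were detected on each array. Itgam, Csf1r, Cd3e, C1qb and Cd68 were detected on all 5, with Itgam between 4.61 and 5.08. With CCG1423, 5 of the 6 immune markers compared lay above 0, with a median of 0.38 against -0.05 over all genes. The summed signal of all 13, undetected ones included, ran on the log2 scale from 5.04 in clone 2 to 5.42 with CCG1423. Since probes differ in brightness per transcript, this sum does not measure cell content. Cd68, a lysosomal membrane protein, was 2.82-fold higher with CCG1423 than with TGF-β1 alone; the part of these markers in the Axl values was not tested. Of 7 fibroblast markers 5, and of 7 endothelial markers 5, were detected on no array. Col1a2, a collagen chain, was 2.08-fold lower with CCG1423 and 3.29-fold and 2.80-fold higher in the clones, the opposite side from the brighter Axl probe. Vwf, an endothelial clotting protein, was 1.43-fold higher with CCG1423 and 1.44-fold and 3.83-fold higher in the clones. The part of these genes was not tested either.

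Gas6, the ligand that binds all 3 TAM receptors, was dim. Its single probe stood at -4.06 with vehicle, -4.10 with TGF-β1, -2.97 with CCG1423 added, -3.77 in clone 1 and -3.85 in clone 2, where it was not well above background. The CCG1423 array was the highest, 2.20-fold above TGF-β1 alone and 2.13-fold above vehicle, and the other 4 arrays lay close together. The software's error was 14.4% of the signal with CCG1423 and 18.4% with TGF-β1. Among 354 probes of like signal detected on all arrays, the median CCG1423 difference was 0.22 and the 95th percentile 1.12, just under the 1.14 of Gas6. Gas6 itself was not detected in clone 2, so that set leaves out dim probes like it. With background modelled on the median spot signals and an offset of 50, the Gas6 difference was 0.38, so it was at 2-fold by the processed signal and not by that correction.

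Pros1, which encodes protein S, a plasma anticoagulant that activates Tyro3 and Mertk, varied little on both probes. The brighter one stood at 1.98 with vehicle, 2.39 with TGF-β1, 2.14 with CCG1423 added, 2.15 in clone 1 and 1.96 in clone 2. The dimmer one stood at -1.32, -1.06, -1.40, -1.24 and -1.29 in the same order. Both probes were well above background on all 5 arrays and highest with TGF-β1 alone, by 0.40 and 0.26 over vehicle. The inhibitor array lay 0.25 and 0.34 below TGF-β1 alone, the opposite side from Axl and Gas6. All Pros1 differences stayed within the range of probes of like signal.

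Enzymes and partners that mature, bridge or shed TAM components were set out in a list of 14 genes, of which 13 could be compared. With CCG1423, 1 was at least 2-fold higher and 1 lower, against 6.01% and 6.98% of all genes. The median difference was 0.12 against -0.05 over all genes. The higher one was Timp3, an inhibitor of the metalloproteinases that shed Axl and Mertk, at 3.48 against 1.26 with TGF-β1 alone (4.66-fold). Timp3 was also 2.50-fold above vehicle with TGF-β1 and lay 1.95-fold and 2.16-fold below wild type in the clones, but unlike the brighter Axl probe it was lowest with vehicle (-0.06). Adam10, a sheddase of TAM receptors, lay 2.23-fold above vehicle with TGF-β1 and differed by 0.14 with CCG1423. Tulp1, a tubby-like protein described as a Mertk ligand, had its one high level in wild-type cells given TGF-β1, at -0.29 against -3.61 with vehicle and -3.33 in clone 1, and was at least 12.4-fold lower with CCG1423. Ggcx, Vkorc1 and Vkorc1l1, which serve the vitamin K modification of Gas6 and protein S, differed by 0.65, 0.12 and 0.01 with CCG1423. In limma, 0 of the 13 passed an adjusted p of 0.05 between clones and wild type, against 2 lower at an unadjusted p under 0.05; Tulp1 came closest (log2 difference -3.12, SE 0.52, adjusted p = 0.0509). The limma p-values measure only the spread between the 2 clones.

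Among the 29 listed signalling and engulfment partners of TAM receptors, few differed 2-fold. With CCG1423, 1 of 28 was at least 2-fold higher and 1 lower, against 6.01% and 6.98% of all genes. Their median was -0.04 against -0.05 over all genes. Elmo1, an engulfment adaptor, was at least 2.33-fold higher and was detected on no other array. With TGF-β1 against vehicle, 0 of 27 were 2-fold different, against 8.21% of all genes. Between both clones and wild type 0 of 27 were, against 2.28% of all genes. In limma 0 of the 27 passed, against 1 lower at an unadjusted p under 0.05. The 2 brightest, Akt1, a survival kinase, and Rac1, a GTPase of membrane ruffling, differed by -0.40 and -0.24 with CCG1423. Lrp1 stayed under the 2-fold cut, at 1.91-fold higher with CCG1423 and 1.61-fold higher with TGF-β1. In the clones Lrp1 lay 1.88-fold and 1.998-fold below wild type, so its directions were those of the brighter Axl probe.

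Among 18 transcription factors known to act on Axl or on the pathways of the series, Mitf was the 1 gene of 17 compared that was 2-fold different with CCG1423. It stood at 6.59 with vehicle, 6.59 with TGF-β1, 5.36 with CCG1423 added, 6.80 in clone 1 and 6.89 in clone 2. Mitf was thus lowest on the array where Axl was highest (2.34-fold below TGF-β1 alone). In the clones it lay only 1.16-fold and 1.24-fold above wild type under TGF-β1. The brighter Axl probe was lowest in the clones and the dimmer one was not. Of the 10 melanocyte markers, which include Mitf, 10 lay below 0 with CCG1423, with a median of -0.35 against -0.05 over all genes. At least 2-fold lower were 3 of them (Mlana, Mitf and Gpr143), where 6.98% of all genes were. Against wild type, 8 of the 10 lay above 0 over the clones, with a median of 0.44; 0 of the 10 passed in limma and 2 higher ones had an unadjusted p under 0.05. The median over all genes was -0.01 for the clones against wild type. Among the 10 markers, the clones differed most for Oca2 (0.17 and 2.60), Gpr143 (-0.01 and 1.37) and Tyr (1.92 and 0.62). Whether these markers bear on the Axl values was not tested.

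The RNA levels of the YAP and TEAD genes differed by less than 2-fold with CCG1423, and the activity of these factors was not measured. Yap1 differed by -0.41, its paralog Wwtr1 by 0.15, and Tead1, Tead2, Tead3 and Tead4 by 0.09, 0.62, 0.38 and 0.47. Mrtfa, Mrtfb and Srf differed by -0.17, -0.63 and 0.14. Fosl1, an AP-1 factor linked to the AXL-high state, stayed at background on all 5 arrays. With TGF-β1 against vehicle, Hif1a, the oxygen-sensing factor, was 2.24-fold higher and Myc 2.10-fold lower. In both clones 0 of the 17 were 2-fold different from wild type, against 2.28% of all genes. Limma called 0 of the 17, with 0 at an unadjusted p under 0.05.

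Genes known to accompany AXL in human melanoma were given by their counts. Of 30 listed genes other than Axl, 23 could be compared with CCG1423, and 15 of these lay above 0. At least 2-fold higher were 3 and lower 2, against 6.01% and 6.98% of all genes. Their median was 0.29 against -0.05 over all genes. Gadd45a, a growth-arrest gene, was 10.3-fold higher, Plaur, the urokinase receptor, 2.46-fold and Fn1, fibronectin, 2.05-fold, while Gbe1, a glycogen-branching enzyme, was 2.62-fold lower and S100a4 2.24-fold lower. With TGF-β1 against vehicle, 4 of 24 were at least 2-fold higher and 1 lower, against 4.95% and 3.27% of all genes. Fstl3, a binder of activins, was 2.91-fold higher and Tnfrsf12a, the TWEAK receptor, 2.57-fold higher. Over the clones 16 of 23 lay below 0, with a median of -0.08 against -0.01 over all genes. In both clones 2 of 23 were at least 2-fold lower, against 1.58% of all genes. These were S100a4 (4.39-fold and 24.3-fold) and S100a6 (2.02-fold and 5.36-fold), both calcium-binding proteins. In limma 0 of the 23 passed, against 1 higher and 2 lower at an unadjusted p under 0.05.

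Axl was set beside other receptor tyrosine kinases. Of 51 such genes listed, 24 were not detected on any array and 23 were detected on all 5. Across those 23 the CCG1423 difference ran from -0.99 (Ephb2, an ephrin receptor) to 1.06 (Fgfr3, a fibroblast growth factor receptor), and Axl at 2.07 lay above all 23. In clone 1 they ran from -0.93 to 0.73 and in clone 2 from -1.32 (Fgfr1) to 1.04 (Epha4), against -1.20 and -1.30 for Axl on its brighter probe. These ranges leave out genes not detected on every array: Kit, the stem cell factor receptor, was 3.13-fold higher in clone 1 and at least 6.14-fold lower in clone 2, and Flt1, a VEGF receptor, was at least 3.99-fold higher in clone 1. Of 25 that could be compared, 1 was at least 2-fold higher with CCG1423 and 0 lower, against 6.01% and 6.98% of all genes. In both clones 0 of the 25 differed 2-fold, against 2.28% of all genes. In limma 0 of the 25 passed, against 1 lower at an unadjusted p under 0.05. With TGF-β1 against vehicle, Ddr1, a collagen receptor, was 2.70-fold higher, Erbb3 2.26-fold higher and Met, the hepatocyte growth factor receptor, 2.53-fold lower. Axl was chosen for its difference, so its place among these receptors is a description.

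**Figure D3:**
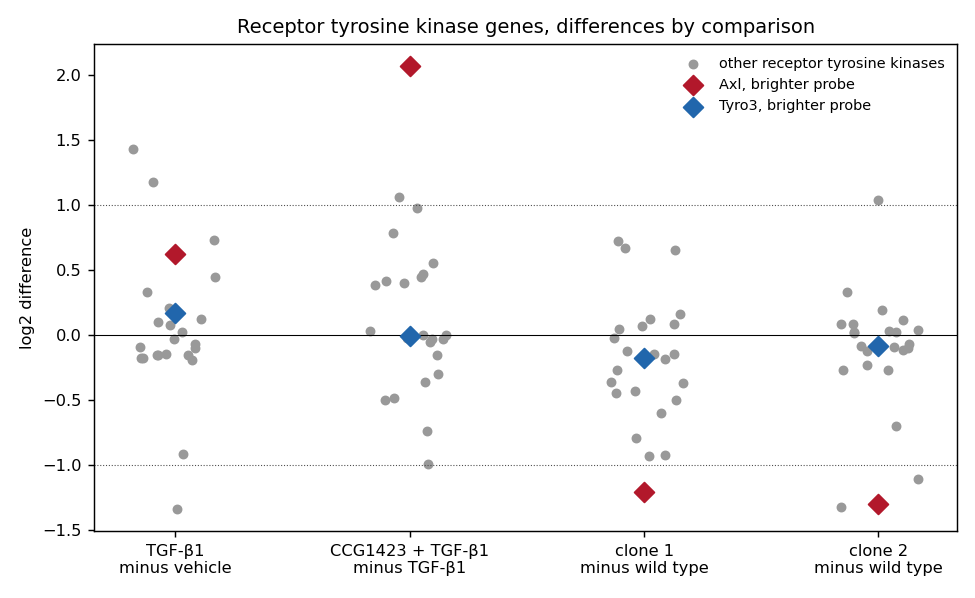
Log2 differences (vertical axis) of 23 other receptor tyrosine kinase genes detected on all 5 arrays (grey points) and of the brighter probes of Axl and Tyro3 (diamonds) in 4 comparisons; dotted lines mark a 2-fold difference, and all 4 comparisons use the same wild-type TGF-β1 array. Axl stands at 2.07 with CCG1423, above the highest grey point at 1.06, and in clone 2 at -1.30 next to Fgfr1 at -1.32.

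Nr1d1, Timp3, Klf4 and Rnd1 were among the 5 genes whose profile over the 5 arrays was nearest to that of the brighter Axl probe. Likeness was the root mean square difference between log2 profiles, each minus its own mean, over 5 arrays and 12057 genes detected on all of them. Nr1d1, a circadian repressor, had a difference of 0.34 (Pearson's r 0.969), Timp3 0.35 (r 0.964), the transcription factor Klf4 0.43 (r 0.95) and Rnd1 0.51 (r 0.929). Nr1d1 stood at -2.09 with vehicle, -1.93 with TGF-β1, -0.25 with CCG1423 added, -3.35 in clone 1 and -2.83 in clone 2. Like the brighter Axl probe it was thus highest with CCG1423 and lowest in the clones. Klf4 and Rnd1 were highest with CCG1423, and differed from wild type by -0.03 and -0.02 in clone 1 and by -0.47 and -0.74 in clone 2. With the dimmer Axl probe, 0 of the nearest 5 were the same genes, so the likeness does not extend to that probe. Of the nearest 5, 4 were the same with quantile normalization and 3 with background modelled on the median spot signals. With the mean of all probes of a gene, 2 of 5 were the same. With the array median, the deposited values or outlier spots kept, 5 of 5 were. Over 5 arrays of which 4 are under TGF-β1, such a likeness is a description.

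**Figure D4:**
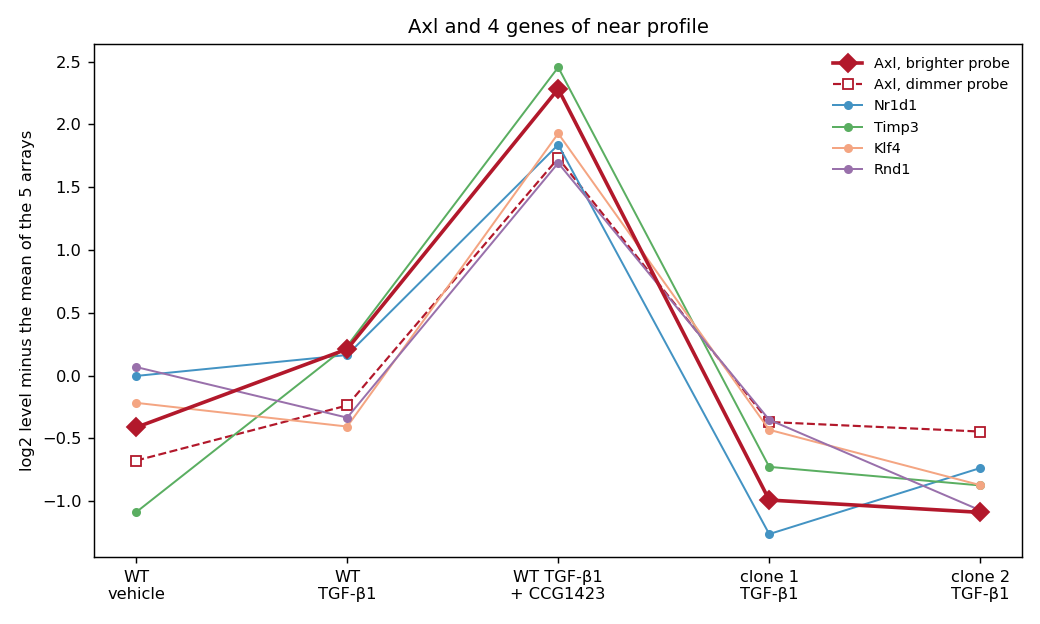
Log2 level minus the mean of the 5 arrays (vertical axis) for the 2 Axl probes and 4 genes of near profile to the brighter one. All 6 lines peak with CCG1423; Nr1d1 follows the brighter Axl probe down in both clones (-1.43 and -0.90 against wild type under TGF-β1), where the dimmer Axl probe stays near its TGF-β1 level.

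The disagreement of the Axl probes in the knockout can be set beside all genes with several probes, Axl included. Of 4595 genes with at least 2 probes detected on the 3 arrays compared, 11 had a brighter probe at least 2-fold lower in both clones. Axl was among these 11. In 6 of the 11, Axl not among them, the second probe was at least 2-fold lower too. The second probe lay below wild type over the clones in 10 of the 11, Axl among them. Its median was -1.21, against -1.49 for the brighter probe, and the dimmer Axl probe stood at -0.17. With CCG1423 the second probe was also at least 2-fold higher in 98 of 155 such genes, Axl among them, and with TGF-β1 against vehicle in 76 of 105.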

How the data were processed

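RNA of 5 cultures was hybridised to 5 Agilent arrays with 1 dye (Cy3). Per the submitters' processing notes and the file headers, the deposited intensities were made with Agilent Feature Extraction 12.0.3.1. The processed signal was spatially detrended within each array and not normalized between arrays, per the file headers, and the flags are the software's. The deposited value table holds the same intensity times 1 constant per array, with direction and linear scale settled by that match and the rule behind the constants unknown; its column medians run from 23.2 to 29.2.

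Control spots and outlier spots (107 to 141 per array) were left out, log2 signals were averaged per probe, and the 75th percentile was subtracted, leaving 56595 probes. RefSeq accessions named 32988 of them, for 22907 genes, through a table of GRCm38.p6; the headers name an older build, so probe coordinates are not given. The probe with the highest mean stood for a gene. A gene was compared where it was detected on every array of 1 side. Folds against an undetected side used the higher of its signal and the array's lowest detected signal and are written "at least". The clones were tested with limma 3.58.1 in R 4.3.3 (trended eBayes, Benjamini-Hochberg, threshold 0.05). The fit used all 5 arrays in 4 groups with 1 residual degree of freedom, the single wild-type array being assumed to vary like the clones. The code was checked on simulated data that gave every gene the same spread. That check does not cover the unequal spread of these arrays. Nothing in the labels gives separate cultures, so p-values cover only the spread between these samples, and all arrays share 1 slide and 1 scan. Python 3.11.15, numpy 2.4.6, pandas 2.3.3 and matplotlib 3.10.9 did the rest. The members, lists, rules and alternatives were chosen with earlier results of these data known, and the list of genes that accompany AXL was written from general knowledge. Named are the members, the 5 nearest profiles, up to 3 highest and 3 lowest list members at 2-fold, limma calls or else the 2 brightest members, and Tmsb4x; Ggcx, Vkorc1, Vkorc1l1, the YAP, TEAD, MRTF and SRF genes, Fosl1, Ephb2, Fgfr1, Epha4, Kit, Flt1, Vwf, Pmel, Tyrp1 and the immune markers other than Cd68 were picked after their values were seen. Some genes that the rule names are not reported here.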

Additional observations from a re-analysis of the deposited data

How the results depend on the processing

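The choices varied were the scaling, the background correction, outlier spots, the filter on dim probes, the probe that stands for a gene, the eBayes trend and each clone. The log2 difference of Axl with CCG1423 was 2.20 with quantile normalization, 1.96 with normexp background correction, 1.94 in the deposited value table and 1.97 on the dimmer probe. For TGF-β1 against vehicle it was 0.73 in the deposited table, 0.53 with the mean of both probes and 0.44 on the dimmer probe. For the clones against wild type it was -1.45 in the deposited table, -0.71 with the mean of both probes and -0.17 on the dimmer probe, and leaving out 1 clone gave -1.30 to -1.20. None of these Axl differences changed sign. The difference of the clones from vehicle, not varied here, was -0.58 and -0.68 on the brighter probe and 0.31 and 0.23 on the dimmer one. With normexp the numbers of genes higher and lower at 2-fold were 358 and 521 with CCG1423, 386 and 191 with TGF-β1, 32 and 104 in both clones, and 222 and 271 between the clones. With detection required on all arrays compared, 549 genes were higher with CCG1423, 413 higher and 209 lower with TGF-β1, 53 lower in both clones, and 236 higher and 307 lower in clone 1 against clone 2. In the deposited values, 52 genes were higher in both clones, and 281 higher and 1085 lower between the clones. With 1 clone left out, 642 to 665 genes were higher and 383 to 475 lower, since only 1 clone then had to pass. The 32 limma calls became 53 with the array median, 87 with normexp, 220 in the deposited table, 17 with outlier spots kept, 3 with detection on all arrays, 279 with no filter and 184 without the trend. With quantile normalization limma called 0 (789 at an unadjusted p under 0.05) and with the mean of probes 0 (753). The cause of these differences was not tested. The planned normexp used mean spot signals, a column not used here; median spot signals and the dimmer probe were chosen after seeing the data. No paired analysis was possible because the groups compared share fewer than 2 replicate numbers. Values of Mertk lie below the detection limit on every array, and those of Gas6 and the dimmer Tyro3 probe lie close to it.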
